A study of Sus scrofa with 9 samples.

Results

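Chemokines are small secreted proteins that draw white blood cells towards a tissue, and chemokine receptors are the membrane proteins on those cells that sense them. The table was searched for every gene whose name begins with CCL, CXCL, CX3CL, XCL, CCR, CXCR, CX3CR, XCR or ACKR and a digit, which gave 45 genes of 21357. They comprise 25 ligands, 16 receptors that signal and 4 atypical receptors. All 45 lie at overlapping coordinates in the RefSeq annotation of Sscrofa11.1, the pig build used here. The RNA-seq libraries were labelled as pieces of the abdominal aorta of Tibetan minipigs, a small pig breed, with 3 libraries in each of 3 groups. The extraction text in the labels speaks of an adipose RNA source instead, and which is right was not tested beyond the markers given below. The NC group was the normal control, fed a normal diet for 24 weeks. H8 was fed a high-fat diet for 8 weeks and carries the label hypercholesterolemia, and H24 was fed it for 24 weeks and carries the label atherosclerosis. The study's methods give the diet of the atherosclerosis group as high in fat and cholesterol, with shortening, cholesterol and egg yolk powder added to the feed. By the study's methods the NC and H24 pigs were male, a few months old at the start, and 3 pigs per group were picked at random. Those methods do not describe H8, whose sex and age are not given in the sources used here. Nor do the labels say that the H8 libraries came from separate pigs, so p-values with H8 measure the spread between these libraries. H8 differs from NC both in diet and in time on study, and these cannot be told apart. H24 and H8 differ both in weeks of the diet and in time on study, which cannot be told apart either.

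Chemokine receptors signal through G proteins, and a cell moves along the gradient of a ligand that its receptor binds. In an artery wall, endothelial, smooth muscle and resident immune cells can all release chemokines, and atherosclerosis is known for the entry of monocytes and T cells. CC ligands mostly act on monocytes, macrophages and lymphocytes, and CXC ligands on neutrophils or lymphocytes. Atypical receptors bind chemokines without the usual G protein signal and remove or carry them. The comparisons asked which ligands and receptors differed in the aorta after 8 and after 24 weeks of the diet, and between these time points.

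The libraries held between 44094263 and 75787978 estimated counts, so that a floor of 3 counts corresponds to 0.0396 to 0.0680 CPM (counts scaled to library size). Their smooth muscle markers (7 genes, among them ACTA2 and MYH11) summed to at least 7955 FPKM in 8 libraries, where FPKM is fragments per kilobase of transcript, scaled to library size. Library H24 replicate 3 stood apart. Its smooth muscle sum was 1710 FPKM, its macrophage sum (10 genes) was 1997 FPKM against 25.9 to 312 in the other libraries, and its correlation of log2 CPM with the other libraries was 0.739 to 0.872. The other pairs of libraries correlated at 0.899 to 0.964. Of the 45 members, 28 had their highest value of the 9 libraries in H24 replicate 3, against 29.2% of all genes with a mean of at least 0.1 FPKM. Values of H24 that were called, or that moved much or turned sign without this library, are therefore given with and without it, as are the counts over the members. Skeletal muscle markers stayed at or under 1.59 FPKM in sum. In bulk tissue, fewer cells of a type and less RNA per cell cannot be told apart.

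More members were called higher than lower in every comparison, with 62.5% of the receptors and 44% of the ligands called higher in H24/NC. The difference between these shares was not tested. By the study's rule a gene was called if its unadjusted p was under 0.05 and its log2 fold change lay above 1 or below -1, here from edgeR's quasi-likelihood test on the counts. The p printed beside a value is the one adjusted over all genes tested (Benjamini-Hochberg), so a call does not mean that this p passed. Values after ± are standard errors, with n = 3 libraries a group. In H24/NC, 21 of the 45 were called higher, 11 ligands and 10 receptors, and none lower. Of all 14828 genes tested, 9.95% were called higher and 1.52% lower. In H8/NC, 7 members were called higher, 3 ligands and 4 receptors, and 2 lower, against 5.11% and 2.27% of 14336 genes. In H24/H8, 10 were called higher, 3 ligands and 7 receptors, and 1 lower, against 7.22% and 3.05% of 14788 genes. None of the 4 atypical receptors was called in any comparison.

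These counts have limits in the number of libraries. No member passed a Benjamini-Hochberg adjusted p under 0.05 with edgeR. The lowest adjusted p of a member was 0.132 in H24/NC, 0.192 in H8/NC and 0.336 in H24/H8. Over all genes 0%, 0.0279% and 0.0135% passed, while 2055, 2124 and 2029 genes had an unadjusted p under 0.05. DESeq2, run as an alternative, passed 16, 6 and 5 members at that adjusted threshold, beside 954, 616 and 650 of all genes. Without H24 replicate 3, 31 members were tested in H24/NC and 13 were called higher, all 13 among the 21. Of these members 5 passed the adjusted threshold, among them CXCL14, CXCR4, CXCR6 and CCR1. Of all 14578 genes tested there, 6.49% were called higher, and 306 genes passed the adjusted threshold. In H24/H8 without H24 replicate 3, 3 of the 11 called members kept their call. The count of adjusted calls ran from 0 to 16 over the alternatives for H24/NC.

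The filter on low values, a mean of at least 0.1 FPKM over the libraries compared, left 37, 31 and 37 members. In H24/NC, 9 of them passed only through the H24 libraries, with an NC mean below 0.1 FPKM, and 7 of these 9 were among the calls. In H8/NC 4 members passed through 1 group only, of which CCR10 was called, and in H24/H8 7 did, of which CCR8 was called. A gene that passes in this way had to differ, so the calls are given out of all 45. With no filter 23 members were called higher in H24/NC, and with a mean of at least 1 FPKM 14 were. Without any filter, the median difference of the 45 members on the log2(FPKM + 0.1) scale was 1.32 in H24/NC, with 35 higher and 9 lower, while the median over all genes of the table was 0. The median was 1.81 over the 16 receptors, 1.32 over the 25 ligands and -0.52 over the 4 atypical receptors. Without H24 replicate 3 it was 0.77 over the members, with 34 higher and 7 lower, 1.11 over the receptors, 0.75 over the ligands and 0.33 over the atypical receptors, whose median thus turned. In H8/NC the median difference was 0.27, with 0.45 for receptors, 0.31 for ligands and -0.65 for atypical receptors. The median over all genes of the table was -0.0015 there, and it was -0.12 over genes with a mean of at least 0.1 FPKM. In H24/H8 the median was 1.02 over the members, 0.054 over all genes of the table and 0.18 over genes above that filter. Without H24 replicate 3 it was 0.57 over the members and 0.16 over genes above the filter.

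**Figure D1:**
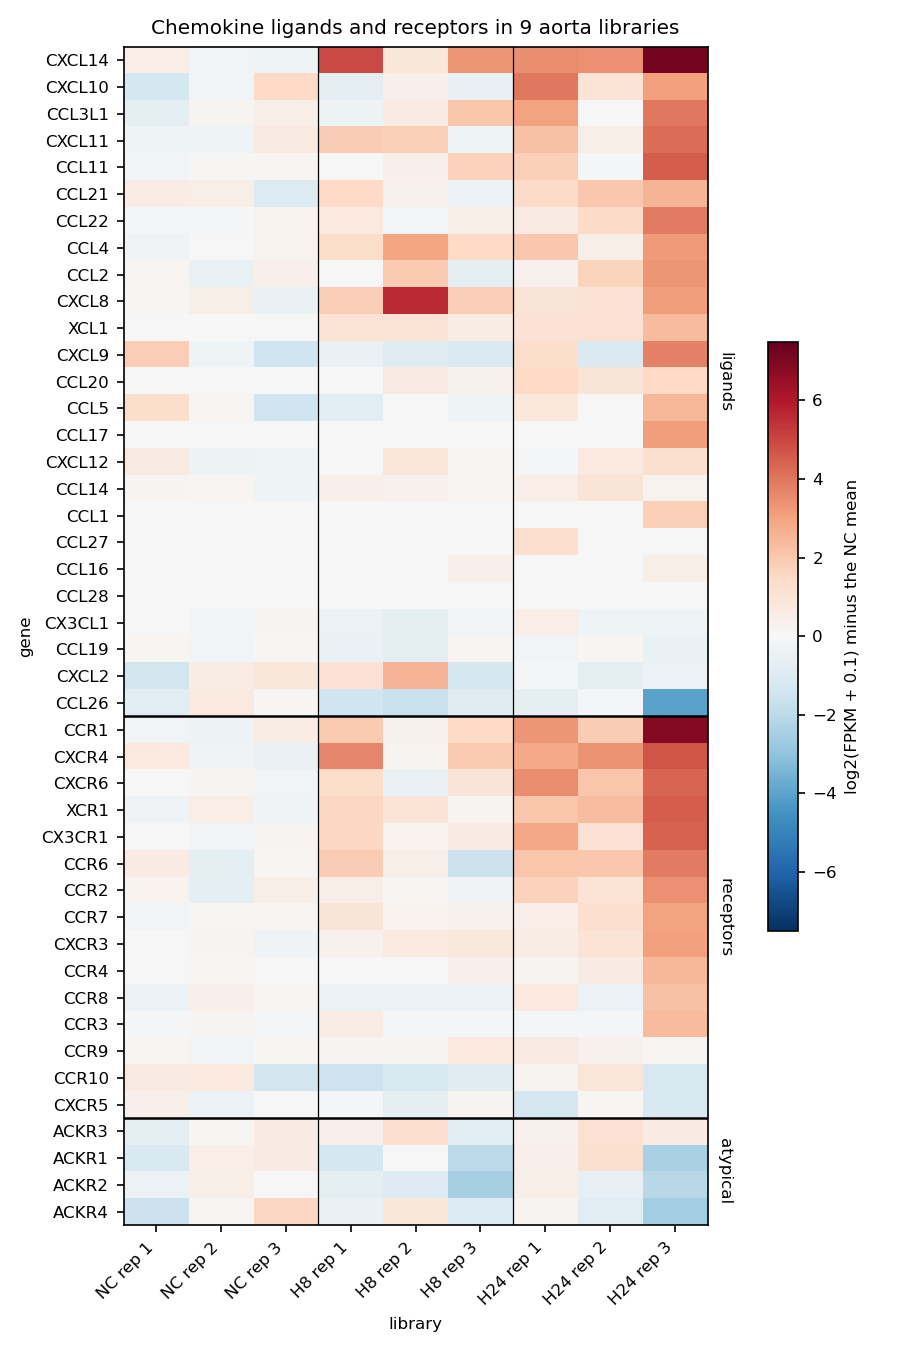
The heatmap shows 44 of the 45 members (rows, ordered within class by the mean difference in H24) in the 9 libraries (columns), as log2(FPKM + 0.1) minus the NC mean of the gene, with red for higher and blue for lower. Most receptors are red in all 3 H24 libraries and darkest in H24 replicate 3, whereas 3 of the 4 atypical receptors are below the NC mean in H24 replicate 3.

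Groups could also be compared by whether their libraries overlapped. In H24/NC, 17 of the 37 tested members (7 ligands and 10 receptors) had every H24 library above every NC library, beside 12.8% of all tested genes. Of these 17, 5 (CCL22, CCR7, CXCR3, XCL1 and XCR1) passed the filter only through H24 and so had to differ, and nothing is read from the share. With no filter the pattern was seen in 20 of the 45 members, and in 20 without H24 replicate 3, where 15.4% of the genes tested showed it. The same held for 4 of 31 members in H8/NC (CCL4, CXCL14, CXCL8 and CX3CR1), against 6.91%. For H24/H8 it held for 6 of 37 members (CXCL10, CXCR6, CCR2, XCR1, CCR6 and XCL1, of which XCL1 passed the filter only through H24), against 15.5%, a share near that of the members. With no filter this was 7 of 45, and 12 of 45 without H24 replicate 3, beside 21.8% of genes. Counted by library, 13, 13 and 14 of the 16 receptors lay above the highest NC library in H24 replicates 1 to 3. In H8 replicates 1 to 3, 12, 5 and 9 receptors did so. For all genes with a mean of at least 0.1 FPKM the shares were 35.3%, 29.9% and 38.6% in H24 and 21.5%, 21.4% and 23.9% in H8. H8 replicate 2 thus had fewer raised receptors than the other H8 libraries.

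Macrophage and T cell markers moved with these genes, while the higher neutrophil sum in H8 rested on CSF3R. The 10 macrophage markers summed to 25.9 to 34.96 FPKM in NC, to 191, 33.4 and 91.6 FPKM in H8 replicates 1 to 3 and to 312, 184 and 1997 FPKM in H24 replicates 1 to 3. In H24, 10, 9 and 10 of these 10 genes were above the highest NC library, and in H8 9, 4 and 9 were. The 8 T cell markers summed to 0.316 to 0.597 FPKM in NC, 1.05 to 1.25 in H8 and 4.20 to 19.0 in H24, where CD3E alone made 15.8 of the 18.1 FPKM of replicate 2. The neutrophil sum ran from 0.445 to 0.495 FPKM in NC, from 2.25 to 4.38 in H8 and from 4.90 to 59.9 in H24, most of it CSF3R. Of the 4 neutrophil markers, 2, 2 and 1 were above the highest NC library in H8 replicates 1 to 3, and 4, 3 and 4 in H24. S100A8 was at 0 in all H8 libraries and in H24 replicate 2. The 6 B cell markers summed to 5.23 to 6.26 FPKM in NC, 1.63 to 4.48 in H8 and 10.3 to 20.3 in H24, and rested on CD79A, with MS4A1 at no more than 0.190 FPKM in any library. The 4 plasma cell markers, mostly XBP1, summed to 50.7 to 65.3 FPKM in NC, 47.8 to 64.6 in H8 and 32.5 to 55.9 in H24. H8 replicate 2, with a macrophage sum near that of NC, is the H8 library with the fewest raised receptors. The part of these cell types in the results was not tested.

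**Figure D2:**
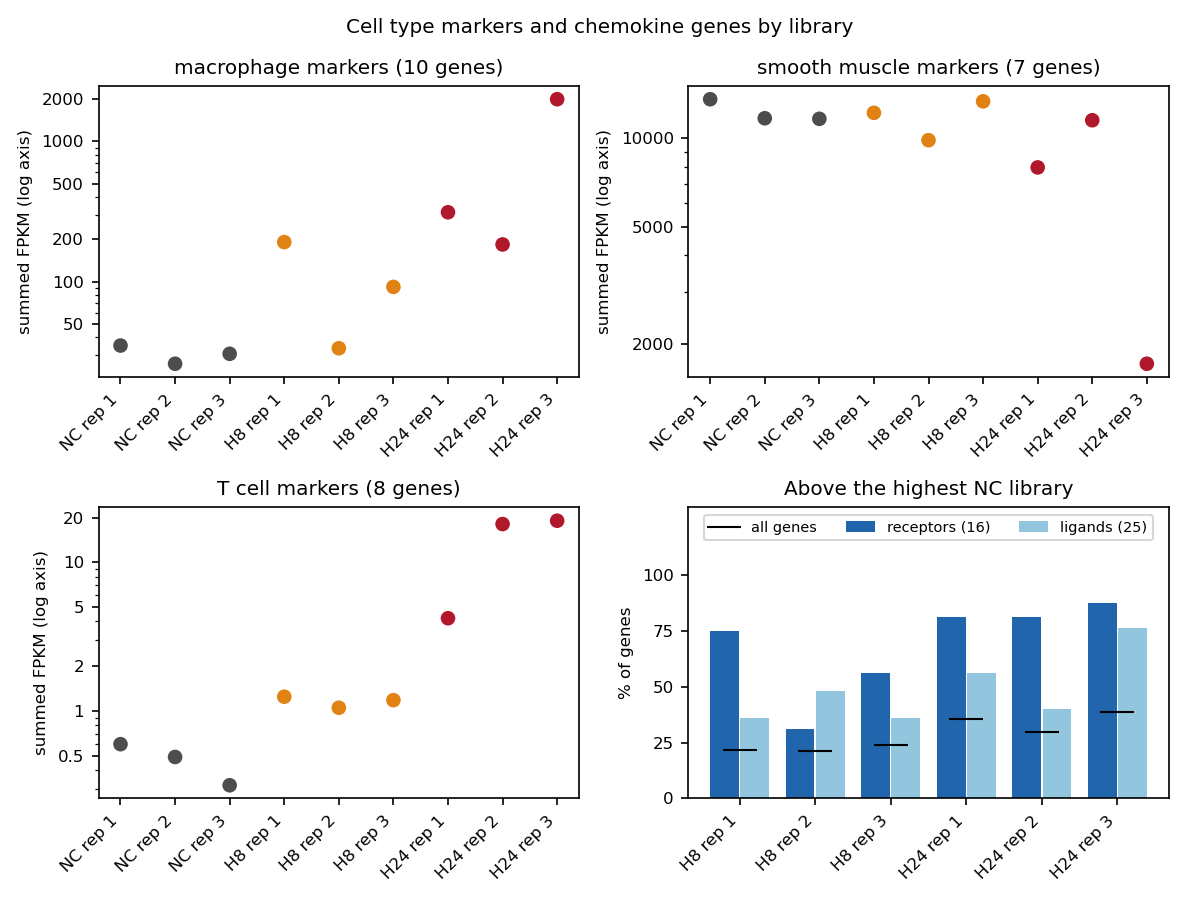
Summed FPKM (log axes) of macrophage, smooth muscle and T cell markers in each library, and the percentage of receptors (dark bars), ligands (light bars) and all genes (black lines) that lie above the highest NC library. H24 replicate 3 has the highest macrophage sum (1997 FPKM) and the lowest smooth muscle sum (1710 FPKM), and H8 replicate 2 has a macrophage sum of 33.4 FPKM and the lowest percentage of raised receptors.

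Receptors of monocytes, macrophages and dendritic cells were called higher in H24 than in NC. CCR1 (chromosome 13, 29227222 to 29233960, minus strand), a receptor for CCL3 and CCL5 on monocytes, read 0.376, 0.310 and 0.698 FPKM in NC, 1.96, 0.585 and 1.43 in H8 and 5.30, 1.95 and 64.5 in H24. All H24 libraries were above all NC libraries, and H24 replicate 3 was 12.2 times the next highest H24 library. The log2 fold change was 5.68 ± 1.40 in H24/NC, adjusted p = 0.152, and 2.93 without that library, adjusted p = 0.0418. In H8/NC it was 1.63 ± 0.52, adjusted p = 0.241, with H8 replicate 2 inside the NC range. That call was lost without H8 replicate 1 (1.23) or without NC replicate 1 (1.49) or 2 (1.42). The H24/H8 value of 3.99 ± 1.28 fell to 1.28 without H24 replicate 3 and was then no longer called, adjusted p = 0.478, and it was also lost without H8 replicate 2 (3.66).

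CCR2 (chromosome 13, 29368747 to 29376350, plus strand), the receptor of CCL2 that marks classical monocytes, read 0.334, 0.129 and 0.387 FPKM in NC, 0.391, 0.280 and 0.205 in H8 and 1.09, 0.631 and 3.80 in H24. The H8 and NC ranges overlapped, with a log2 fold change of 0.20 ± 0.54, adjusted p = 0.900, whereas H24 lay above both groups. CCR2 was called in H24/NC (2.68 ± 0.78, adjusted p = 0.212) and in H24/H8 (2.44 ± 0.72, adjusted p = 0.336). Without H24 replicate 3 these values were 1.57 (adjusted p = 0.329) and 1.36 (adjusted p = 0.431), and both calls were kept.

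CX3CR1 (chromosome 13, 23944369 to 23957486, minus strand), the fractalkine receptor of patrolling monocytes and tissue macrophages, was the one tested receptor whose H8 libraries all lay above NC. The levels were 0.242, 0.208 and 0.313 FPKM in NC, 0.935, 0.325 and 0.439 in H8 and 2.4996, 0.641 and 7.57 in H24. The log2 fold change was 3.78 ± 0.89 in H24/NC, adjusted p = 0.139, and 2.58 without H24 replicate 3, adjusted p = 0.119. Its H8/NC value, 1.27 ± 0.53, adjusted p = 0.329, had the largest p of the H8/NC calls, and leaving out any NC library or H8 replicate 1 ended it, with values from 0.72 to 1.45. This call was lost in 9 of 14 alternatives, among them scaling by library size only and a fit of all 9 libraries. In H24/H8 CX3CR1 was called at 2.46 ± 0.87, adjusted p = 0.341, but not without H24 replicate 3 (1.28, adjusted p = 0.530) or H8 replicate 2 (2.22) or 3 (2.28).

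XCR1 (chromosome 13, 29152572 to 29159602, minus strand), which marks cross-presenting dendritic cells, was low in NC at 0.0207, 0.107 and 0.0209 FPKM. It read 0.317, 0.190 and 0.0692 FPKM in H8 and 0.517, 0.621 and 3.26 in H24, so that H24 lay above both other groups. The H24/NC log2 fold change was 4.73 ± 1.08, adjusted p = 0.136, and 3.37 without H24 replicate 3, adjusted p = 0.122. With all libraries XCR1 passed the filter in H24/NC only through H24 and so had to differ there. In H24/H8 the call (2.69 ± 0.93, adjusted p = 0.341) was lost without H24 replicate 3 (1.37, adjusted p = 0.533) or H8 replicate 2 (2.75) or 3 (2.28). The 3 dendritic cell markers in the table summed to 0.678 to 1.01 FPKM in NC, 0.547 to 0.605 in H8 and 1.13 to 2.18 in H24, most of it ZBTB46, and FLT3 reached 0.383 FPKM and LAMP3 0.432 FPKM at most. Their part in the XCR1 result was not tested. The ligand of XCR1, XCL1, is released by T and natural killer cells. XCL1 was at 0 counts in all NC libraries, had 9, 8 and 4 counts in H8 and 8, 6 and 29 in H24. Its level in H24 was at least 5.56-fold higher than in NC, with the floor of 3 counts taken in each NC library, and at least 2.93-fold higher without H24 replicate 3, where XCL1 fell below the filter.

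**Figure D3:**
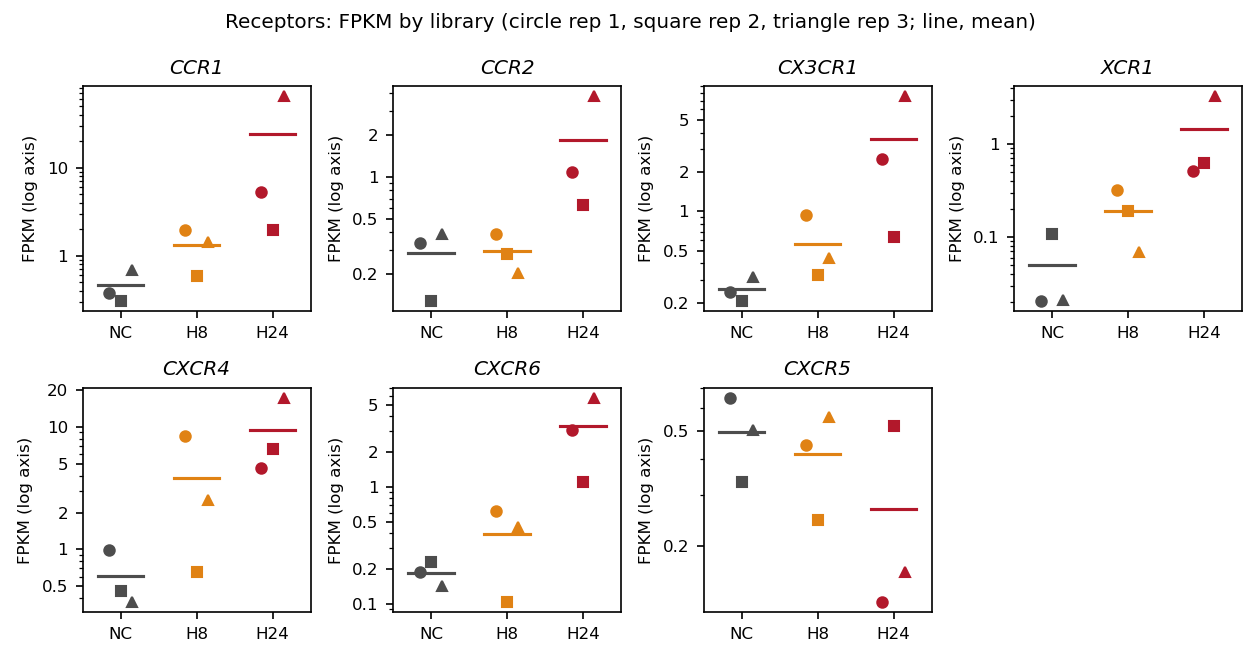
FPKM (log axes) of 7 receptors in every library of NC (grey), H8 (orange) and H24 (red), with a line at the group mean. In each panel but that of CXCR5, all H24 points lie above all NC points, and in these 6 panels H24 replicate 3 (red triangle) is the highest.

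Receptors of lymphocytes were next. CXCR4 (chromosome 15, 15663492 to 15670979, plus strand), the receptor of CXCL12 that most white blood cells carry, had the smallest p of the members in H24/NC. Its levels were 0.990, 0.462 and 0.372 FPKM in NC, 8.36, 0.658 and 2.51 in H8 and 4.61, 6.60 and 17.2 in H24. The H24 libraries lay above NC, and H8 replicate 2 lay inside the NC range while the other H8 libraries lay above it. The log2 fold changes were 3.96 ± 0.65 in H24/NC (adjusted p = 0.132, and 3.20 without H24 replicate 3, adjusted p = 0.0174) and 2.76 ± 0.85 in H8/NC (adjusted p = 0.239). The H8/NC call ended without H8 replicate 1 (1.48). Between H24 and H8 the difference of 1.15 ± 0.87 did not pass, adjusted p = 0.561, and was 0.42 without H24 replicate 3.

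CXCR6 (chromosome 13, 29095900 to 29100655, plus strand), found on effector and resident T cells, separated H24 from both other groups. The levels were 0.186, 0.225 and 0.143 FPKM in NC, 0.626, 0.103 and 0.451 in H8 and 3.03, 1.09 and 5.78 in H24, and neither NC nor H8 overlapped with H24. Log2 fold changes were 4.11 ± 0.70 in H24/NC (adjusted p = 0.132) and 2.89 ± 0.81 in H24/H8 (adjusted p = 0.336), with 3.41 (adjusted p = 0.0322) and 2.21 (adjusted p = 0.418) without H24 replicate 3. In H8/NC the value was 1.18 ± 0.70, adjusted p = 0.480. CXCR6 overlaps FYCO1 on the opposite strand, and without strand information their reads cannot be told apart. FYCO1 had group means of 9.46, 9.43 and 10.9 FPKM in NC, H8 and H24.

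CCR6 (chromosome 1, 2018608 to 2019821, minus strand), the CCL20 receptor of B cells and some T helper cells, read 0.381, 0.0872 and 0.228 FPKM in NC and 1.21, 1.14 and 4.52 in H24. H24 lay above NC, at a log2 fold change of 3.25 ± 0.84, adjusted p = 0.165, and 2.28 without H24 replicate 3, adjusted p = 0.253. The H8 libraries were spread over 1.05, 0.324 and 0 FPKM, and neither H8/NC (adjusted p = 0.755) nor H24/H8 (adjusted p = 0.519) passed. CCL20 was at 0 counts in NC, at 0, 8 and 4 counts in H8 and at 25, 9 and 22 counts in H24, which is at least 7.17-fold higher in H24 than in NC, or 6.65-fold without H24 replicate 3. This ligand had too low a mean to be tested.

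CCR7 and CXCR3 were near the floor in NC. CCR7, which guides naive T cells and mature dendritic cells, read 0, 0.0210 and 0.0245 FPKM in NC, 0.126, 0.0352 and 0.0417 in H8 and 0.0600, 0.171 and 0.822 in H24. CXCR3, the receptor of activated T cells for CXCL9, CXCL10 and CXCL11, read 0.0214, 0.0369 and 0 FPKM in NC, 0.0511, 0.0930 and 0.108 in H8 and 0.0739, 0.141 and 0.893 in H24. In both genes every H24 library was above NC, but the H24 mean rested on replicate 3. They were called in H24/NC (4.49 ± 1.43, adjusted p = 0.250, and 4.06 ± 1.45, adjusted p = 0.293), and both fell under the filter without that library. Both passed the H24/NC filter only through H24 and so had to differ there. CXCR3 was also lost without NC replicate 1 (4.04) or 3 (3.48).

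The other receptors were fewer in calls. CXCR5, the B cell follicle receptor, read 0.649, 0.334 and 0.502 FPKM in NC, 0.446, 0.247 and 0.558 in H8 and 0.129, 0.518 and 0.164 in H24, with overlapping groups and a log2 fold change of -0.87 ± 0.67 in H24/NC, adjusted p = 0.607. CXCR5 overlaps BCL9L on the opposite strand, and without strand information their reads cannot be told apart. BCL9L had group means of 16.9, 15.2 and 13.4 FPKM in NC, H8 and H24. CCR8, found on some regulatory T cells, had 0, 16 and 9 counts in NC, none in H8 and 25, 0 and 88 in H24. It was called in H24/H8 (adjusted p = 0.341), at least 14.3-fold higher with all libraries and at least 4.49-fold without H24 replicate 3, but not in H24/NC (adjusted p = 0.598). CCR8 passed the filter in H24/H8 only through H24 and so had to differ there. The H24/H8 call was lost without H24 replicate 1, and CCR8 fell under the filter without H24 replicate 3, where its H24 counts came from replicate 1 alone. CCR10, the receptor of skin-homing T cells, was called lower in H8/NC. It passed the filter there only through NC, with an H8 mean of 0.0488 FPKM, and so had to differ. Its levels were 0.436, 0.456 and 0.0307 FPKM in NC, 0.0148, 0.0541 and 0.0774 in H8 and 0.286, 0.549 and 0.0479 in H24, with a log2 fold change of -2.46 ± 0.998, adjusted p = 0.317. NC replicate 3 lay within the H8 range, and leaving out NC replicate 1 or 2 or any H8 library ended the call, with values from -2.86 to -2.02. CCR10 overlaps PLEKHH3 on the same strand, whose group means were 24.2, 13.7 and 17.2 FPKM. CCR3, CCR4 and CCR9 were not tested. They had group means of at most 0.189 FPKM, and CCR3 and CCR4 had their highest value in H24 replicate 3 (0.467 and 0.486 FPKM).

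The ligands spanned a wide range of levels. In NC, CCL19 made up 40.6% of the summed FPKM of the 25 ligands, CX3CL1 23.5%, CCL2 10.2%, CCL26 7.57% and CXCL2 6.68%. In H24 the leading ligands were CCL2 with a mean of 97.0 FPKM, CXCL14 with 87.8, CCL19 with 74.1 and CX3CL1 with 49.1, the CCL2 and CXCL14 means being set largely by replicate 3. The most abundant receptor in NC was CXCR4 at 0.608 FPKM, with CXCR5 at 0.495 and CCR1 at 0.461 FPKM also among the highest, and their ranges overlapped. In H24 CCR1 led by mean with 23.9 FPKM, and CXCR4 had 9.48, CX3CR1 3.57 and CXCR6 3.30 FPKM, with overlapping ranges. The CCR1 mean was also set largely by replicate 3, and by median CXCR4 (6.60 FPKM) lay above CCR1 (5.30 FPKM).

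CCL2 (chromosome 12, 40798116 to 40800026, minus strand), the monocyte attractant that signals through CCR2, read 22.7, 14.1 and 26.4 FPKM in NC, 20.1, 80.6 and 12.7 in H8 and 25.6, 65.6 and 199.7 in H24. H24 replicate 1 lay inside the NC range, and H8 replicate 2 stood apart from the other H8 libraries. The log2 fold change was 2.199 ± 0.72 in H24/NC, adjusted p = 0.257, and 1.11 without H24 replicate 3, adjusted p = 0.398. The call was lost without NC replicate 2 (1.99). In H8/NC the value of 1.05 ± 0.69 did not pass, adjusted p = 0.520, and turned to -0.28 without H8 replicate 2. H24/H8 gave 1.09 ± 0.93, adjusted p = 0.608, and 0.06 without H24 replicate 3.

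The inflammatory ligands of the CCL3 and CCL4 group were low beside CCL2. CCL4 (chromosome 12, 39477694 to 39480827, minus strand), released by activated macrophages and T cells, read 0.220, 0.278 and 0.368 FPKM in NC, 0.913, 2.88 and 0.980 in H8 and 1.45, 0.412 and 3.47 in H24. Both diet groups lay above NC, with log2 fold changes of 2.64 ± 0.61 in H8/NC (adjusted p = 0.192) and 2.59 ± 0.79 in H24/NC (adjusted p = 0.229, and 1.64 without H24 replicate 3, adjusted p = 0.404). H24/H8 gave -0.10 ± 0.83, adjusted p = 0.968, and -1.02 without H24 replicate 3. The relative CCL3L1 read 0.123, 0.313 and 0.394 FPKM in NC, 0.171, 0.450 and 1.43 in H8 and 2.76, 0.254 and 5.35 in H24. It was called in H24/NC (3.26 ± 1.08, adjusted p = 0.265) but not without H24 replicate 3 (2.35, adjusted p = 0.452) or NC replicate 1 (2.91). CCL3L1 and CCL4 overlap a gene described as C-C motif chemokine 3, on the opposite strand to CCL3L1 and the same strand as CCL4, so reads could be shared. That gene was at 0.0136 FPKM on average in NC and at 0 in the diet groups.

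CCL5, a T cell and platelet product, was at 5.74, 2.51 and 0.732 FPKM in NC, 1.19, 2.29 and 1.80 in H8 and 3.89, 2.29 and 13.0 in H24. The NC libraries alone spread over the range of most others, and H24/NC did not pass (1.08 ± 0.88, adjusted p = 0.633, and 0.02 without H24 replicate 3). The H24/H8 call, 1.63 ± 0.69, adjusted p = 0.364, was lost without H24 replicate 3 (0.60, adjusted p = 0.672) and without H8 replicate 1 (1.40), 2 (1.95) or 3 (1.59).

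The eotaxins attract eosinophils through CCR3. CCL11 read 0.0311, 0.0602 and 0.0649 FPKM in NC, 0.0474, 0.0986 and 0.393 in H8 and 0.415, 0.0372 and 3.36 in H24, and H24 replicate 2 lay inside the NC range. Its H24/NC call (4.55 ± 1.47, adjusted p = 0.254) ended without H24 replicate 3 (2.03, adjusted p = 0.545) or NC replicate 1 (4.28). CCL11 passed the filter there only through H24 and so had to differ. CCL26 (chromosome 3, 10381293 to 10385747, plus strand) was more abundant, at 7.79, 23.8 and 15.2 FPKM in NC, 4.98, 4.33 and 7.39 in H8 and 8.85, 12.7 and 0.796 in H24. All H8 libraries lay below NC, and CCL26 was the ligand called lower in H8/NC, at -1.37 ± 0.44, adjusted p = 0.245. Without NC replicate 2 the value was -0.90, and the call was lost. The 5 fat cell markers, mostly FABP4, summed to 89.7 to 157 FPKM in NC, to 49.1, 140.3 and 50.2 in H8 and to 57.2 to 106 in H24. Among them ADIPOQ read 4.44, 14.6 and 6.83 FPKM in NC, 0.0789 to 0.106 in H8, and 7.24, 0.0705 and 0.416 in H24. The part of fat tissue in the CCL26 result was not tested. CCL14, which acts on CCR1, read 6.13, 5.65 and 4.05 FPKM in NC, 6.67, 6.46 and 5.79 in H8 and 7.53, 10.3 and 6.33 in H24. H24 lay above NC, but by a log2 fold change of only 0.59 ± 0.36, adjusted p = 0.528.

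Of the CCR7 ligands, 1 was called in H24/NC. CCL19 (chromosome 10, 32110119 to 32112737, plus strand), the most abundant ligand in NC and H8, read 93.0, 71.3 and 86.6 FPKM in NC, 58.4, 50.7 and 91.5 in H8 and 71.3, 92.6 and 58.3 in H24. The groups overlapped, and the log2 fold changes were -0.19 ± 0.24 in H24/NC (adjusted p = 0.778) and -0.20 ± 0.21 in H8/NC (adjusted p = 0.712). CCL21 (chromosome 10, 32093459 to 32096831, plus strand), which lies next to it, read 3.07, 2.79 and 0.954 FPKM in NC, 5.89, 2.55 and 1.49 in H8 and 5.59, 8.49 and 12.6 in H24. Every H24 library exceeded every NC library, at 1.95 ± 0.52, adjusted p = 0.176, and 1.61 without H24 replicate 3, adjusted p = 0.241. CCL21 was called in H24/NC under every alternative run. CCL21 is a product of lymphatic vessels and lymphoid stroma. The 3 lymphatic markers in the table summed to 1.82 to 5.44 FPKM in NC, 1.02 to 2.90 in H8 and 2.41 to 4.01 in H24, with PROX1 at no more than 0.107 FPKM in any library. Their part in the CCL21 result was not tested.

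Among the interferon-induced ligands of CXCR3, CXCL10 had the smallest p of all members in H24/H8. CXCL10 (chromosome 8, 71690758 to 71696162, minus strand) read 0.647, 1.51 and 5.13 FPKM in NC, 1.05, 2.33 and 1.16 in H8 and 28.9, 3.69 and 15.2 in H24. H24 did not overlap with H8, and its replicate 1, not 3, was the highest library. The log2 fold change was 3.15 ± 0.75 in H24/H8, adjusted p = 0.336, and 3.18 without H24 replicate 3, adjusted p = 0.341. It was called in H24/H8 under every alternative run. H24/NC gave 2.67 ± 0.94, adjusted p = 0.285, with NC replicate 3 above H24 replicate 2, and the call ended without H24 replicate 1 (1.96) or NC replicate 1 (2.22) or 2 (2.44).

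CXCL9 read 9.99, 2.19 and 0.898 FPKM in NC, 1.94, 1.43 and 1.27 in H8 and 7.00, 1.24 and 39.0 in H24. NC replicate 1 lay above 2 of the H24 libraries, and H24/NC did not pass (1.85 ± 1.28, adjusted p = 0.571) and turned to -0.11 without H24 replicate 3. The H24/H8 call (3.13 ± 1.08, adjusted p = 0.341) ended without H24 replicate 3 (1.2003, adjusted p = 0.529) or H8 replicate 2 (3.13) or 3 (2.97). CXCL11 was low, at 0, 0 and 0.0977 FPKM in NC, 0.371, 0.327 and 0 in H8 and 0.478, 0.0708 and 2.18 in H24. Its H24/NC call (4.60 ± 1.83, adjusted p = 0.339) ended without H24 replicate 1 (4.91) or 3 (2.86, adjusted p = 0.633) or NC replicate 1 (4.03) or 2 (4.01). CXCL11 passed the filter there only through H24 and so had to differ. Without NC replicate 3, the NC library with CXCL11 counts, the fitted value was 9.15, which then rests on NC libraries at 0 and is no bound.

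The neutrophil attractants had their highest mean in H8. CXCL8 (chromosome 8, 69932644 to 69935861, plus strand), or interleukin 8, read 0.673, 0.922 and 0.415 FPKM in NC, 2.53, 35.5 and 2.56 in H8 and 1.37, 1.46 and 6.29 in H24. Both diet groups lay above NC, and H8 replicate 2 was 13.9 times the next highest H8 library. The log2 fold change was 4.55 ± 1.204 in H8/NC, adjusted p = 0.206, and 1.97 without H8 replicate 2, adjusted p = 0.172. H24/NC gave 2.15 ± 0.75, adjusted p = 0.280, a call lost without H24 replicate 3 (1.04, adjusted p = 0.592) or NC replicate 1 (2.13) or 3 (1.87). Between H24 and H8 the value was -2.45 ± 1.23, adjusted p = 0.408, and -3.52 without H24 replicate 3, adjusted p = 0.438, which would be called lower. Without H8 replicate 2 it turned to 0.12.

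CXCL2 (chromosome 8, 70054756 to 70163415, plus strand) read 4.21, 16.4 and 20.7 FPKM in NC, 25.3, 67.1 and 4.69 in H8 and 10.1, 6.80 and 8.14 in H24. It was the member called lower in H24/H8, at -2.22 ± 0.86, adjusted p = 0.342, although H8 replicate 3 lay below H24. That call was lost without H8 replicate 2 (-0.99) and without H24 replicate 1 (-2.35), 2 (-2.12) or 3 (-2.19, adjusted p = 0.484). CXCL2 overlaps an unnamed gene on the same strand, with means of 21.8, 79.4 and 21.8 FPKM in NC, H8 and H24, so their reads may be split. H8 replicate 2 held the highest H8 value of CXCL8, CXCL2, CCL2 and CCL4. In that library the neutrophil markers S100A8 and S100A9 were at 0. Its CSF3R read 2.21 FPKM, against 4.32 and 3.65 in H8 replicates 1 and 3 and at most 0.301 in NC. Its neutrophil sum of 2.25 FPKM was the lowest of H8, against 4.38 and 3.66 in replicates 1 and 3 and at most 0.495 in NC. DCN of fibroblasts was at 499 FPKM against 227 to 233 in the other H8 libraries, and HBB of red cells at 202 FPKM against 44.9 to 47.4. The part of these in the CXCL8 result was not tested.

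CXCL12 (chromosome 14, 91516433 to 91552752, plus strand), the ligand of CXCR4, read 4.82, 2.34 and 2.43 FPKM in NC, 2.92, 5.69 and 3.21 in H8 and 2.72, 5.11 and 7.11 in H24, and the groups overlapped. The log2 fold changes were 0.64 ± 0.44 in H24/NC (adjusted p = 0.577, and 0.29 without H24 replicate 3) and 0.47 ± 0.40 in H8/NC (adjusted p = 0.617), where CXCR4 gave 3.96 and 2.76. CX3CL1 (chromosome 6, 19312447 to 19324088, plus strand), or fractalkine, a membrane-bound ligand of endothelium and smooth muscle, read 47.9, 42.6 and 54.8 FPKM in NC, 35.6, 28.7 and 42.1 in H8 and 68.6, 39.3 and 39.2 in H24. All H8 libraries lay below NC, by -0.32 ± 0.16, adjusted p = 0.401, and H24/NC gave -0.01 ± 0.27, adjusted p = 0.989. Its receptor CX3CR1 was called higher in both comparisons, though its H8/NC call was lost in 9 of 14 alternatives. For both pairs the difference between ligand and receptor was not tested.

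CXCL14 (chromosome 2, 137803992 to 137813156, minus strand), a ligand with no settled receptor that attracts monocytes and dendritic cells, had the largest H24/NC log2 fold change of the ligands with an NC mean of at least 1 FPKM. The levels were 2.18, 1.29 and 1.19 FPKM in NC, 49.1, 2.74 and 15.995 in H8 and 17.7, 17.2 and 229 in H24. Both diet groups lay wholly above NC, and H24 replicate 3 was 12.9 times the next highest H24 library. The log2 fold change was 3.96 ± 0.92 in H8/NC, adjusted p = 0.192, which stayed called under every alternative run. In H24/NC it was 5.81 ± 1.22, adjusted p = 0.132, and 3.47 without H24 replicate 3, adjusted p = 0.00516. DESeq2 gave CXCL14 no p in H24/NC. H24/H8 gave 1.79 ± 1.27, adjusted p = 0.538, and turned to -0.50 without H24 replicate 3.

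CCL22, a macrophage and dendritic cell ligand of CCR4, had 0, 0 and 4 counts in NC. It read 0.0819, 0 and 0.0496 FPKM in H8 and 0.0705, 0.189 and 1.53 in H24, with each H24 library above NC, and was called in H24/NC (log2 fold change 5.87 ± 1.79, adjusted p = 0.231). CCL22 passed the filter there only through H24 and so had to differ. Without NC replicate 3 the fitted value was 9.31, against NC libraries at 0 and so no bound, and without H24 replicate 3 CCL22 fell under the filter. CCL17, the other CCR4 ligand, had 38 counts in H24 replicate 3 and none in any other library, and did not pass (adjusted p = 0.419). CCL1, CCL16, CCL27 and CCL28 were at or near 0 throughout. CCL28 had no count in any library, CCL1 had 12 counts in H24 replicate 3 only, CCL27 had 5 counts in H24 replicate 1 only, and CCL16 had 4 counts each in H8 replicate 3 and H24 replicate 3.

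**Figure D4:**
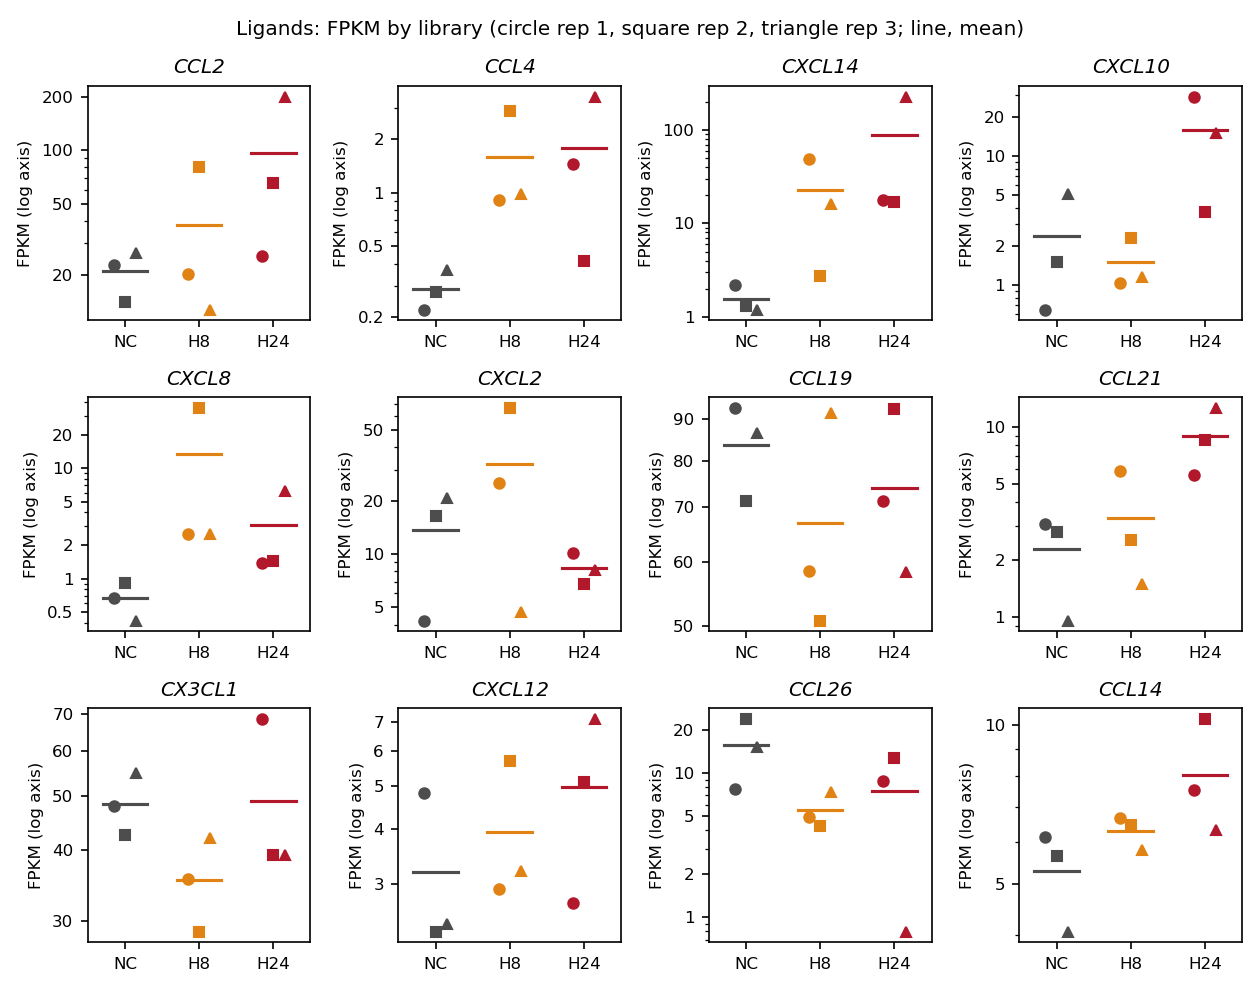
FPKM (log axes) of 12 ligands in every library of NC (grey), H8 (orange) and H24 (red), with a line at the group mean. CXCL14 and CXCL8 lie above NC in both diet groups, CXCL10 separates H24 from H8, H8 replicate 2 (orange square) leads in CXCL8 and CXCL2, and CCL19 overlaps between all groups.

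The levels of the atypical receptors overlapped between most groups. ACKR3, which removes CXCL12, read 13.0, 23.3 and 33.3 FPKM in NC, 27.96, 52.3 and 12.2 in H8 and 26.7, 48.6 and 33.0 in H24, with log2 fold changes of 0.62 ± 0.40 in H24/NC (adjusted p = 0.551) and 0.59 ± 0.57 in H8/NC (adjusted p = 0.670). ACKR1, the chemokine carrier of venular endothelium and red cells, read 5.99, 19.2 and 20.6 FPKM in NC, 5.33, 13.4 and 3.40 in H8 and 17.1, 30.6 and 2.36 in H24. It was lowest in H24 replicate 3, and H24/NC gave 0.10 ± 0.85, adjusted p = 0.970, and 0.62 without it. ACKR2, which clears CC chemokines, read 10.1, 19.1 and 13.5 FPKM in NC, 8.37, 7.01 and 2.35 in H8 and 18.7, 9.11 and 3.25 in H24. All its H8 libraries lay below NC, at -1.12 ± 0.48, adjusted p = 0.338, with an unadjusted p just above the threshold. In 8 of 15 alternatives it was called lower, at values over all 15 from -1.42 to -0.73. ACKR4, which clears CCL19 and CCL21, read 0.919, 3.20 and 9.02 FPKM in NC, 2.15, 5.43 and 1.45 in H8 and 3.52, 1.69 and 0.422 in H24, and the NC libraries alone differed by more than the group means. ACKR4 overlaps ACAD11 on the opposite strand, with group means of 8.98, 7.65 and 8.04 FPKM in NC, H8 and H24, and their reads cannot be told apart without strand information. Red cell marker HBB read 30.2, 124 and 122 FPKM in NC, 44.9, 202 and 47.4 in H8 and 83.7, 249 and 19.3 in H24, so that replicate 2 was the highest library of H8 and of H24 for both HBB and ACKR1. The part of blood in the ACKR1 values was not tested.

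Many members lie close together in the genome. Of the 45, 28 lie in 8 clusters in which neighbours are within 200 kb. On chromosome 13, CXCR6, XCR1, CCR1 and CCR2 lie in one such cluster, and each of these 4 was called higher in H24/NC and in H24/H8. CCR3 and CCR9 lie in it too and were too low to be tested. On chromosome 12 (39477694 to 39659121), CCL4, CCL3L1, CCL14, CCL16 and CCL5 form a ligand cluster with 2 of 5 called in H24/NC. CCL1, CCL11 and CCL2 form another (40728006 to 40800026) with 2 of 3. CCL19 and CCL21 share a cluster on chromosome 10 (32093459 to 32138974), in which CCL21 was called in H24/NC and CCL19 was not. CCL22 was called and CX3CL1 was not in the cluster on chromosome 6 (19296637 to 19348965). On chromosome 8, CXCL8 but not CXCL2, and 2 of CXCL9, CXCL10 and CXCL11, were called in H24/NC, and so was CX3CR1 but not its neighbour CCR8. Of all genes tested, 9.95% were called higher in H24/NC and 7.22% in H24/H8. CCL11, CCL22, CXCL11 and XCR1 passed the H24/NC filter only through H24 and so had to differ, and nothing is read from the cluster counts.

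**Figure D5:**
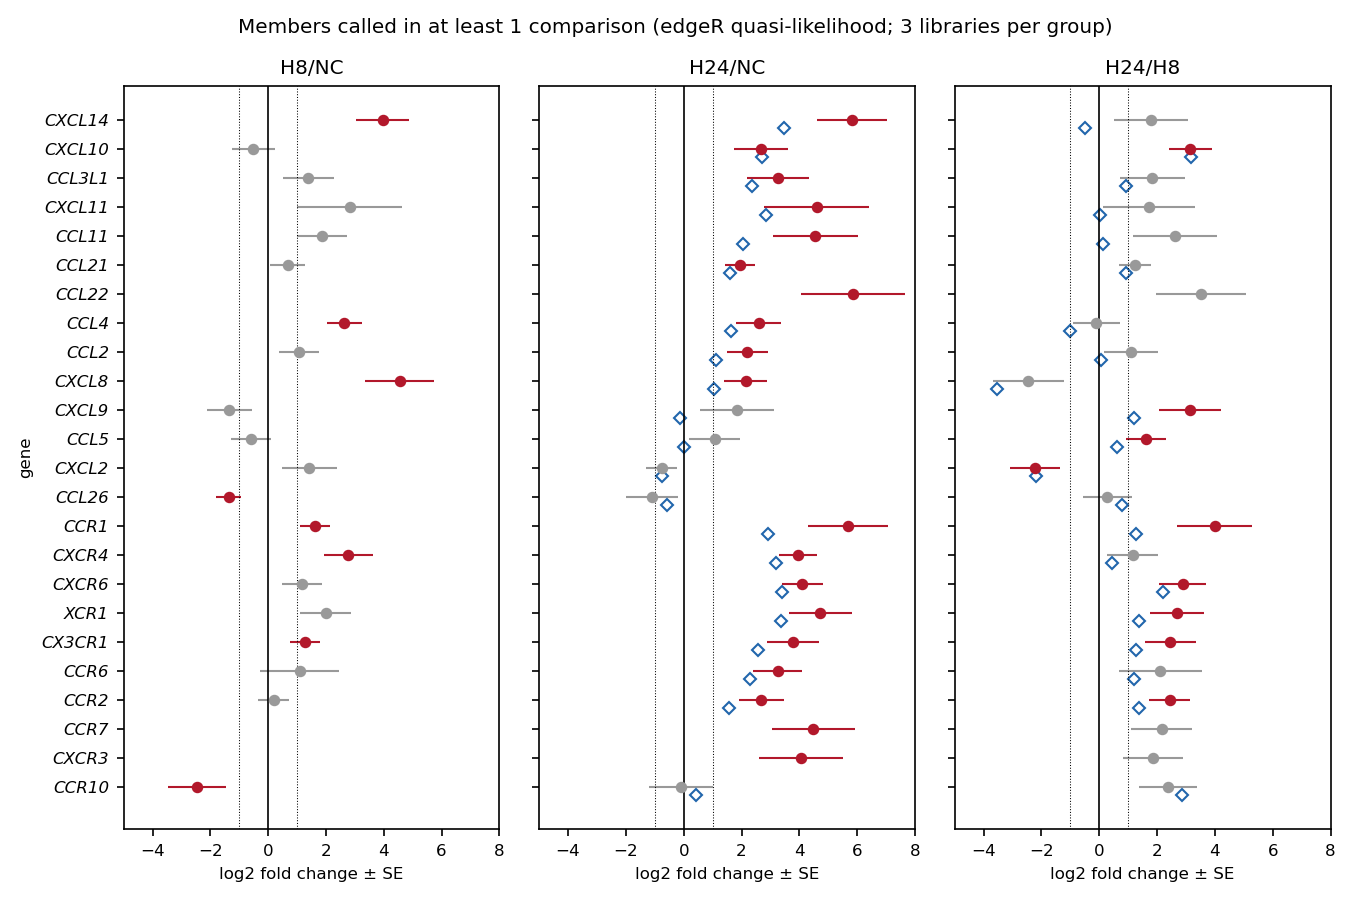
Log2 fold changes ± SE of members called in at least 1 comparison, in H8/NC, H24/NC and H24/H8, with called values in red and others in grey. Open blue diamonds give the value without H24 replicate 3, dotted lines mark log2 fold changes of -1 and 1, and XCL1 and CCR8 are left out because a whole group was at 0 counts. In H24/NC the diamonds lie nearer to 0 than the points for CCR1 and CXCL14, whereas for CXCL10 the values are 2.67 with and 2.69 without that library.

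Some genes of the family carry no symbol in the table and were found by their description, outside the rule. CXCL16, the membrane-bound ligand of CXCR6, read 5.86, 5.15 and 4.55 FPKM in NC, 6.53, 8.37 and 7.16 in H8 and 9.71, 14.4 and 29.1 in H24. H24 lay above the other groups, at a log2 fold change of 1.76 ± 0.42 in H24/NC, adjusted p = 0.146, and 1.198 without H24 replicate 3. Its H8/NC value was 0.65 ± 0.19, adjusted p = 0.232, under the fold threshold. CCL23, a ligand of CCR1, read 0.0586, 0.0651 and 0.119 FPKM in NC, 0.762, 0.193 and 0.305 in H8 and 1.72, 0.409 and 8.72 in H24. Both diet groups lay above NC, at 2.48 ± 0.64 in H8/NC (adjusted p = 0.206) and 5.45 ± 1.17 in H24/NC (adjusted p = 0.132), or 3.65 without H24 replicate 3. CXCR2, the receptor of CXCL8 and CXCL2 on neutrophils, read 0.142, 0.0268 and 0.0374 FPKM in NC, 0.104, 0.798 and 0.0486 in H8 and 0.160, 0.256 and 1.49 in H24. Its H24/NC value of 3.21 ± 1.11, adjusted p = 0.279, was 1.60 without H24 replicate 3 and no longer called. Like CXCL8 and CXCL2, CXCR2 had its highest H8 value in replicate 2. Other genes found in this way were not called in H24/NC. CCL24 gave -0.32 ± 0.79 (adjusted p = 0.891), CCL25 -1.02 ± 0.59 (adjusted p = 0.504) and CXCL13, near the floor, 2.06 ± 1.39 (adjusted p = 0.564).

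Signaling genes downstream of the receptors were taken from a list of 95, of which 91 are in the table. In H24/NC 21 of them were called higher and 2 lower, or 23.1% of the tested ones called higher. In H8/NC 11 were called higher and 1 lower (12.4% higher), and in H24/H8 19 and 2 (20.9% higher). Without H24 replicate 3, 16 were called higher and 1 lower in H24/NC (17.8% higher) and 9 and 1 in H24/H8 (9.89% higher), beside 6.49% and 3.75% of all genes called higher. With all libraries, the shares of all genes called higher were 9.95%, 5.11% and 7.22%. Those with the smallest p in H24/NC were JAK3 (3.61 ± 0.55, adjusted p = 0.132), a kinase of lymphocytes, WAS (4.45 ± 0.79, adjusted p = 0.132), an actin regulator of blood cells, and VAV1 (5.19 ± 0.99, adjusted p = 0.132), a Rac activator of blood cells. GNAI1, an inhibitory G protein subunit of the kind through which chemokine receptors signal, was called lower (-1.67 ± 0.36, adjusted p = 0.132), as was the receptor kinase GRK5 (-1.06 ± 0.40, adjusted p = 0.318). GNAI1 read 8.43 to 10.7 FPKM in NC and 1.55 to 4.03 in H24. Its relative GNAI2 read 59.0 to 63.2 FPKM in NC and 60.2 to 82.2 in H24, and GNAI3 read 14.0 to 17.2 and 8.32 to 12.6. Without H24 replicate 3 JAK3, WAS, VAV1 and GNAI1 kept their calls, at 2.79, 3.18, 3.5001 and -1.37, and GRK5 did not (-0.78). In H8/NC the leading genes were VAV1 (2.60 ± 0.58, adjusted p = 0.187), LYN (1.52 ± 0.34, adjusted p = 0.187) and RAC2 (1.48 ± 0.36, adjusted p = 0.202), and GNB4 was called lower (-1.31 ± 0.34, adjusted p = 0.206).

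Scaling set part of the balance of calls in comparisons with H8. With scaling by library size only, the median log2 fold change of all genes was -0.13 in H8/NC and 0.24 in H24/H8, against values near 0 with TMM. The genes called over the whole table then moved from 733 higher and 326 lower to 576 and 459 in H8/NC, and from 1068 and 451 to 1447 and 290 in H24/H8. The members moved from 7 higher and 2 lower to 6 and 3 in H8/NC, and from 10 and 1 to 12 and 1 in H24/H8.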

How the data were processed

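RNA-seq of 9 libraries labelled as abdominal aorta of Tibetan minipigs was analysed, 3 per group, from 1 table of 21357 genes. By the study's methods the authors selected poly(A) RNA, sequenced it in pairs, aligned it to Sscrofa11.1 with HISAT2 2.0 and assembled it with StringTie 1.3.0. The submitters' processing notes also name Bowtie 0.12.2 and the mouse build mm8, with no role given; the coordinates of all 45 members overlap those of Sscrofa11.1. The authors deposited FPKM per gene and library and whole-number estimated counts. How the counts were derived, the annotation release and strand are not given in the sources used here.

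Estimated counts were tested with edgeR 4.0.16 in R 4.3.3 (TMM factors, quasi-likelihood test, two-sided), on genes with a mean of at least 0.1 FPKM over the libraries compared. A call needed an unadjusted p under 0.05 and a log2 fold change above 1 or below -1. The p-values were also adjusted by Benjamini-Hochberg over all tested genes. SE is the log2 fold change divided by the root of F. An exact permutation test of 3 against 3 cannot go below p = 0.1. The test was run on simulated data first. Limma 3.58.1 on log2(FPKM + 0.1) or log2(FPKM + 1), DESeq2 1.42.0, other scalings and filters, and fits without 1 library were the alternatives. Counts over the members and signaling genes, medians and bounds without H24 replicate 3 were added after seeing the data. Members with a group mean of at least 1 FPKM or a call were named with all values. Members and lists were chosen with earlier results of these data known. The comparisons share libraries. No 2 libraries agreed within sampling noise. Totals of 44094263 to 75787978 counts set the floor, which covers counting error only. Coordinates are those of the table. The values of 1 member are not reported here, though the counts include it.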

Additional observations from a re-analysis of the deposited data

Results flagged for a closer look

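CXCL10 stood out because the diet groups lay on opposite sides of the NC mean: all 3 H8 libraries were below it and all 3 H24 libraries above it. That mean was set largely by NC replicate 3 (5.13 FPKM), and H8 replicate 2 (2.33 FPKM) lay above the other NC libraries (0.647 and 1.51 FPKM). The test of the difference between the diet groups is the H24/H8 comparison, with a log2 fold change of 3.15 and adjusted p = 0.336 (edgeR's quasi-likelihood test with Benjamini-Hochberg adjustment). By the same test H8/NC gave -0.51, adjusted p = 0.787, and this value turned to 0.64 without NC replicate 3.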

How the results depend on the processing

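No called log2 fold change turned its direction under an alternative, but 59 values of 24 member comparisons that were called neither in the fit reported nor in the alternative did. In H24/NC, CCR10 (-0.090) became 0.050 with the replicate block, and -0.93 to 0.41 without 1 library. CX3CL1 (-0.013) became 0.023 with library size only and 0.011 with a mean of at least 1 FPKM, and -0.30 to 0.12 without 1 library. ACKR1 (0.10) became -0.14 with the replicate block, -0.30 and -0.22 with limma at pseudocounts of 0.1 and 1, and -0.72 to 0.62 without 1 library. CXCL9 ran from -0.11 to 3.30 without 1 library. In H8/NC, ACKR4 (-0.35) became 0.053 with the replicate block and -1.21 to 0.71 without 1 library. Without 1 library CXCR5 ran from -0.35 to 0.10, ACKR3 from -0.13 to 0.99, CCL5 from -1.06 to 0.24, CCL2 from -0.28 to 1.49, CCR2 from -0.14 to 0.48, CCR6 from -0.30 to 1.67, CXCL10 from -1.06 to 0.64, CXCL9 from -1.82 to 0.11 and CCL21 from -0.0018 to 1.03. In H24/H8, CCL19 (-0.0083) became 0.0083 with RLE size factors, 0.16 with library size only, 0.018 with a mean of at least 1 FPKM, 0.031 in a fit of all 9 libraries, 0.0082 with DESeq2, 0.17 with limma on log2(FPKM + 0.1) and 0.17 on log2(FPKM + 1), and -0.26 to 0.23 without 1 library. CCL4 (-0.10) became 0.18 with library size only, 0.025 with limma on log2(FPKM + 1), and -1.02 to 0.76 without 1 library. CCL26 (0.28) became -0.23 with the replicate block, -0.24 and -0.047 with limma at pseudocounts of 0.1 and 1, and -0.43 to 0.80 without 1 library. Without 1 library CXCL8 ran from -3.52 to 0.12, CXCL14 from -0.50 to 3.07, ACKR3 from -0.39 to 0.73, CX3CL1 from -0.0051 to 0.43, ACKR2 from -0.092 to 1.03, CCL14 from -0.10 to 0.33 and CXCL12 from -0.19 to 0.58. In H24/NC, the 21 members called higher became 13 with limma on log2(FPKM + 1) and ran from 13 to 22 when 1 library was left out; those called lower ran from 0 to 1, and those with an adjusted p under 0.05 from 0 to 5, against 16 with DESeq2. In H8/NC, the 7 called higher became 3 with a mean of at least 1 FPKM, 2 with limma on log2(FPKM + 1), and 4 to 10 without 1 library. The 2 called lower became 4 with no filter, 1 with a mean of at least 1 FPKM, 0 in a fit of all 9 libraries, and 0 to 3 without 1 library. Adjusted calls there were 6 with DESeq2 and 0 to 1 without 1 library. In H24/H8, the 10 called higher became 15 with DESeq2, 6 with the replicate block, 4 with limma on log2(FPKM + 1), and 4 to 12 without 1 library. The 1 called lower became 0 with the replicate block and 0 with limma on either scale, and ran from 0 to 2 without 1 library. Adjusted calls were 5 with DESeq2. Without H24 replicate 3, 12 members in place of 7 lay wholly above H8, and the signaling genes called lower went from 2 to 1 in H24/NC and in H24/H8, where those called higher went from 19 to 9. The causes were not tested. Over all genes, adjusted calls were 954, 616 and 650 with DESeq2 in H24/NC, H8/NC and H24/H8, against 0, 4 and 2 with edgeR, and limma on log2(FPKM + 1) called 714, 202 and 517 genes higher. Same-numbered libraries deviated together with a correlation of only -0.0848 to 0.107, so the numbers were not taken to pair them. With the replicate block 17, 6 and 6 members were called higher, and 1114, 639 and 800 genes. DESeq2 gave no p for CXCL14 in H24/NC or for CXCL8 in H8/NC and H24/H8. Members under the floor of 3 counts cannot be compared at this depth.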
